A study of Mus musculus with 8 samples.

Results

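The microglia genes described here are 33 listed symbols that mark the resident macrophages of the brain, read in bulk RNA-seq of the mouse arcuate nucleus. Rows were kept where the deposited gene name was a listed symbol, in the gene tables of the knockout and the sponge comparison. Of the 33 symbols, 32 had a row, and Itgam had 2 rows with different identifiers that were kept apart, which gave 33 entries among 13769 genes. The level of Ptprc was not analysed here, and of this symbol only the promoter window was read. The choice rested on cell type knowledge, and was made with earlier results of these data known.

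The study manipulated microRNAs in cells that express Pomc, the gene of the appetite-suppressing precursor peptide pro-opiomelanocortin. The groups were Pomc-Cre;miR-17-92flox/flox males, in which Cre deletes the miR-17-92 cluster, and their wild type male littermates. The female groups were Pomc-Cre;miR-7-sponge mice, in which a decoy transcript binds miR-7, and their wild type littermates. All mice were C57BL/6 and 4 months old, each group had 2 libraries, and each library pooled the arcuate nucleus of 2 mice. The wild type groups are labelled without Cre, so Cre and the manipulation cannot be told apart. The Pomc promoter directs Cre to Pomc-expressing cells, not to microglia. In bulk tissue, fewer microglia and less RNA per microglial cell cannot be told apart either.

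Microglia enter the brain before birth and renew themselves there under signals through the receptor Csf1r. They sense neurons through receptors such as Cx3cr1 and the purine receptor P2ry12, tag synapses and debris with the complement protein C1q, and clear them with phagocytic receptors that signal through the adaptors Tyrobp and Fcer1g. The transcription factors Spi1 (also called PU.1) and Irf8 set up the myeloid programme, and Sall1 maintains the microglial state. In the arcuate nucleus, microglia lie among the neurons that control feeding.

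The promoter windows of 6 members with results described further on are shown, 4 chosen because they hold the motif searched for and 2, of C1qb and Fcer1g, because they do not. Ctss had the highest level, C1qc and C1qb are chains of C1q, whose levels varied widely within groups, Itgam was split between its 2 rows, Inpp5d had both knockout libraries below both wild type libraries, and Fcer1g had both sponge libraries below both of their wild type libraries. The windows run from 250 bases before to 50 bases after the gene start, 5′ to 3′ on the strand of the gene, from RefSeq on GRCm38.p6. Capitals mark the PU.1 core GAGGAAG, or its reverse complement CTTCCTC.
Ctss: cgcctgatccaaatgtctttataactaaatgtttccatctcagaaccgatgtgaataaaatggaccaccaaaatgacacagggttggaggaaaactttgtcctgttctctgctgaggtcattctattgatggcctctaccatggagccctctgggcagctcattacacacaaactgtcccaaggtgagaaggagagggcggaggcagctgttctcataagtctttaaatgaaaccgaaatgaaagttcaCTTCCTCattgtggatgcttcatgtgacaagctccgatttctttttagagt
C1qc: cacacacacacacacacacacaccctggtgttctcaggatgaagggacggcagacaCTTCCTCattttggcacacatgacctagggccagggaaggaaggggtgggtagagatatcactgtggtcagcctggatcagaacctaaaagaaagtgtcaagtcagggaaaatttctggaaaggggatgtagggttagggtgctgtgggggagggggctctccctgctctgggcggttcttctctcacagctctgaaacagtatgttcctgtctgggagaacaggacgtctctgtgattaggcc
Itgam: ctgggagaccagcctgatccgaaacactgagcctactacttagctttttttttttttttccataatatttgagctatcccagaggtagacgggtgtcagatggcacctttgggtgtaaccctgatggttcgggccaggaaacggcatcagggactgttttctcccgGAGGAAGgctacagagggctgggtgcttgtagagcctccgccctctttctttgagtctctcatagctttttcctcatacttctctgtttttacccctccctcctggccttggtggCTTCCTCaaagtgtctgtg
Inpp5d: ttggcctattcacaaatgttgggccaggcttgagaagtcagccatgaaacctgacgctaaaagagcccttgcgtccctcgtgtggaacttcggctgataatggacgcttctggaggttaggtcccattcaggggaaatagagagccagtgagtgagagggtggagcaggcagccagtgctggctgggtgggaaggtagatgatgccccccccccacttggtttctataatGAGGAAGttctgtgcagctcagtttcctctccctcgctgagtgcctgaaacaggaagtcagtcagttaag
C1qb: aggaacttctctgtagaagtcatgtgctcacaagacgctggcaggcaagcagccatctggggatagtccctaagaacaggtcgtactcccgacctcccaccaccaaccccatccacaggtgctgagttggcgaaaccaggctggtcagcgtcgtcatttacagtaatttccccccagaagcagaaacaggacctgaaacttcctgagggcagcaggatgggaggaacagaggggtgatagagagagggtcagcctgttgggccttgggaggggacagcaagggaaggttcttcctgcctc
Fcer1g: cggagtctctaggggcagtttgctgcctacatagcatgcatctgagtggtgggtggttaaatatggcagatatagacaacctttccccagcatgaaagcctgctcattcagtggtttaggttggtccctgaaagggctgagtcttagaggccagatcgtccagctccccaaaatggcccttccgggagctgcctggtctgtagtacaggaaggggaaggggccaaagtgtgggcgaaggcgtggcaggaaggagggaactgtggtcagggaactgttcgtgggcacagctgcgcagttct
The windows lie at chr3:95526536-95526835 on the plus strand for Ctss, chr4:136892865-136893164 on the minus strand for C1qc, chr7:128062390-128062689 on the plus strand for Itgam and chr1:87620062-87620361 on the plus strand for Inpp5d. Those without a match lie at chr4:136886151-136886450 for C1qb and chr1:171234300-171234599 for Fcer1g, both on the minus strand. A window was found for 25 of the 33 symbols, Ptprc among them. Searched on both strands, GAGGAAG was present in 10 of the 25 windows, or 40.0%, against 13.5% of the windows of all 27025 genes in the RefSeq table. The shorter core of the wider ETS family, GGAAGT, which can overlap the first, was present in 12 of the 25 member windows, or 48.0%, against 24.1% of all windows. Among the 10423 windows of genes in the deposited gene tables, 12.9% held GAGGAAG and 26.4% held GGAAGT. Besides the 4 shown with it, Fcgr3, P2ry13, Fcrls, Cd53, Laptm5 and Trem2 held GAGGAAG. A match is a run of letters and does not show that a factor binds there.

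Values are FPKM, the authors' count of fragments scaled to transcript length and to the mapped reads of the library. Some gene rows lay below the gene's own transcript. In knockout male replicate 1, Trem2 had 0.874 FPKM and its transcript Trem2-001 2.70 FPKM, while C1qa had 39.2 FPKM in both. Levels are thus compared between genes only roughly. Read totals per library were not analysed here, and the depth behind each value is unknown. Fits were made with limma on log2(FPKM + 1) over all genes with a mean of at least 0.5 FPKM in the 4 libraries of a comparison. A gene was called at a Benjamini-Hochberg adjusted p under 0.05. Values after ± beside a fold change are standard errors, and each group has 2 libraries throughout. Genes of the meninges and fibroblasts differed between libraries. Their summed level over 16 entries was 411 and 287 FPKM in knockout males and 115 and 117 FPKM in wild type males, and 292 and 105 FPKM in sponge females and 113 and 130 FPKM in wild type females. Of 22 listed genes of circulating leukocytes, 0 were in the gene tables used, which does not show that blood cells were absent. Red blood cell genes were present. Their summed level over 4 entries was 146 and 103 FPKM in knockout males and 75.2 and 144 FPKM in wild type males. It was 43.2 and 78.8 FPKM in sponge females and 87.2 and 38.6 FPKM in wild type females.

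Microglia genes were detected at low to moderate levels. Over the 8 libraries, 5 entries averaged at least 10 FPKM and 24 averaged under 5 FPKM. The median of the member means was 2.59 FPKM, against 5.0 FPKM over the 13025 genes with a mean of at least 0.5 FPKM over the 8 libraries. The highest were Ctss, which encodes the lysosomal protease cathepsin S, with a mean of 43.6 FPKM, and C1qa with 30.8 FPKM. Tmem119, a membrane protein used to tell microglia from other macrophages, had 5.33 and 4.75 FPKM in knockout males and 3.80 and 6.25 FPKM in wild type males. It had 4.41 and 5.27 FPKM in sponge females and 4.90 and 4.76 FPKM in wild type females. Ctss, C1qa and Tmem119 were thus present in every library, and the Tmem119 groups overlapped in both comparisons. Of the 32 entries with values in all 8 libraries, 4 were under 0.1 FPKM in at least 1 library. Among them, Cx3cr1 was under 0.1 FPKM in 4 libraries.

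**Figure D1:**
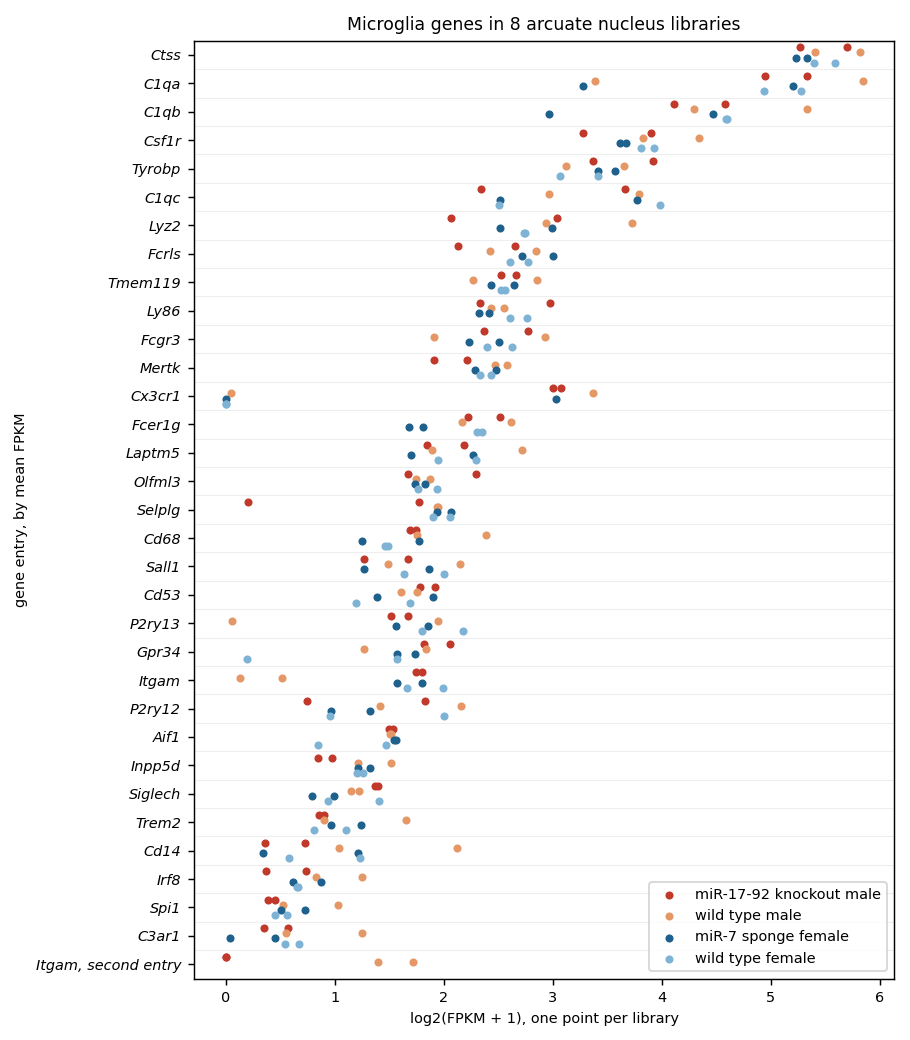
Level of each microglia gene entry, as log2(FPKM + 1), with one point per library and entries ordered from the highest mean at the top. Ctss lies highest, and the points of Cx3cr1 and C1qa spread widely within groups; the second entry of Itgam is drawn for the male libraries.

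One wild type library stood above the others for these genes. Among the 32 entries with values in all 8 libraries, wild type male replicate 1 was the highest library for 18, while 12.4% of all 13025 genes peaked there. The other libraries were highest for between 0 and 5 entries each. The median entry lay 0.33 above its own 8-library mean in wild type male replicate 1 on the log2(FPKM + 1) scale, where the median over all genes was -0.04. In the other libraries the median entry lay between -0.11 and 0.10. Summed over the 32 entries, the level was 222 and 175 FPKM in knockout males and 280 and 168 FPKM in wild type males. It was 174 and 166 FPKM in sponge females and 211 and 185 FPKM in wild type females. Both comparisons that use the wild type males share this library. Wild type male replicate 1 also had the highest sums of other homeostatic microglia genes, 506 FPKM, and of activated microglia genes, 1771 FPKM. The same held for genes listed as ligands of microglial receptors or related to them, at 1235 FPKM. The ligand and activated lists both hold Apoe, at 862 FPKM there. The sums of astrocyte and of pan-neuronal genes were not highest in this library.

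The summed level of genes of border-associated macrophages, the macrophages of the meninges and vessel walls, was highest in the same library. Of 17 listed genes, 6 had values in all libraries. Their summed level was 8.27 and 7.71 FPKM in knockout males and 17.2 and 4.49 FPKM in wild type males, and 4.28 and 4.51 FPKM in sponge females and 4.70 and 4.04 FPKM in wild type females. Cd74, the invariant chain of antigen presentation, had 10.2 FPKM in wild type male replicate 1 and between 0.598 and 2.59 FPKM in the others. H2-Aa, also of antigen presentation, had 2.794 FPKM there and 1.311 and 1.031 FPKM in knockout males. Mrc1 and Stab1, of the same list, were not highest in that library. Mrc1 had 0.5389 FPKM there and 0.758 and 0.6005 FPKM in knockout males. Stab1 had 1.038 FPKM there and 1.499 and 1.311 FPKM in wild type females. The part of border-associated macrophages in the microglial values was not tested.

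**Figure D2:**
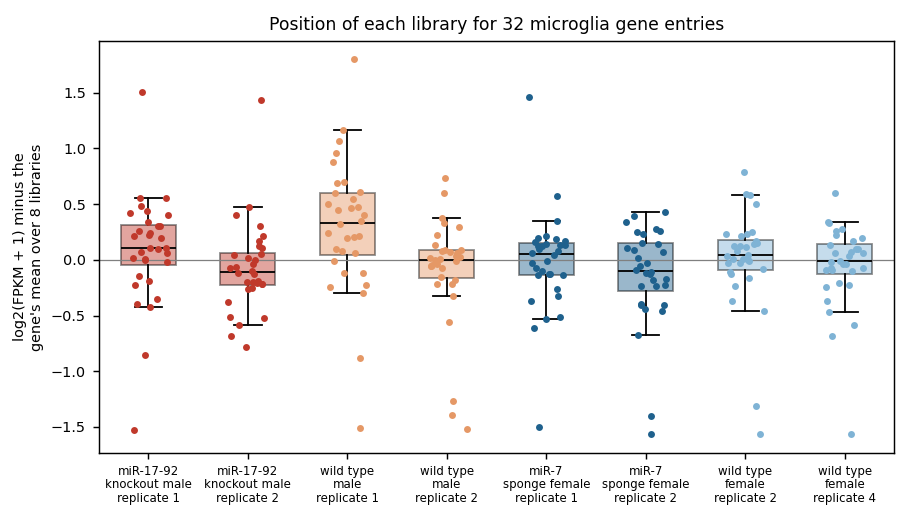
Distance of each of 32 microglia gene entries from its own mean over 8 libraries, on the log2(FPKM + 1) scale, by library; boxes give the median and quartiles, and points are entries. Wild type male replicate 1 has the highest median, 0.33, and the other medians lie between -0.11 and 0.10.

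The first comparison asked what differs in the arcuate nucleus when miR-17-92 is removed from Pomc-expressing cells of males. All 33 entries passed the filter on low values and 0 were called by limma, with 8 of 13155 genes called in all, or 0.0608%. At an unadjusted p under 0.05 there were 1 entry higher and 1 lower, both rows of Itgam, beside 3.22% of all genes higher and 2.11% lower. The log2 fold change was negative for 20 of 33 entries, or 60.6%, against 46.1% of all genes. The median was -0.29 over the entries and 0.03 over all genes. Without wild type male replicate 1, 18 of 33 entries were negative, beside 49.5% of all genes, and the median was -0.02. Without knockout replicate 2, 17 were negative, beside 47.4% of all genes, and the median was again -0.02. Without knockout replicate 1, 24 were negative, beside 42.7% of all genes, and the median was -0.17. Without wild type male replicate 2, 24 were negative, beside 44.7% of all genes, and the median was -0.45.

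For 3 entries both knockout values exceeded both wild type values, beside a background of 22.5% of all genes. For 8 entries both knockout values were the lower ones, beside a background of 16.0%. The entries above were Itgam, Siglech and Cd53, and those below were the second entry of Itgam, Cd14, Mertk, Inpp5d, Irf8, Selplg, Spi1 and Cd68.

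The complement and phagocytic genes had 4 positive and 9 negative fold changes, with a median of -0.39. Itgam, which encodes the integrin chain CD11b of complement receptor 3, has 2 rows that overlap on chromosome 7, at chr7:128062640-128118491 and chr7:128062683-128128160. The first row had 2.35 and 2.48 FPKM in knockout males and 0.433 and 0.0974 FPKM in wild type males. The second row was listed at 0 in both knockout libraries and at 2.28 and 1.64 FPKM in wild type males. The 2 rows ran in opposite directions. The first had a log2 fold change of 1.45 ± 0.22 with an adjusted p of 0.297, and the second an adjusted p of 0.214. Added together, the rows gave 2.35 and 2.48 FPKM in knockout males and 2.71 and 1.74 FPKM in wild type males. These sums overlapped between the groups, and the division of reads between the rows makes each row alone uncertain.

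The chains of C1q, which starts the classical complement cascade, differed widely between libraries of one group. C1qa had 39.2 and 29.8 FPKM in knockout males and 56.3 and 9.44 FPKM in wild type males. C1qb had 23.0 and 16.3 FPKM in knockout males and 39.1 and 18.7 FPKM in wild type males. C1qc had 4.06 and 11.7 FPKM in knockout males and 6.81 and 12.9 FPKM in wild type males. The wild type values of C1qa lay on either side of the knockout pair, and all 3 chains overlapped between the groups. The log2 fold changes were 0.53 ± 0.84 for C1qa, -0.47 ± 0.41 for C1qb and -0.38 ± 0.55 for C1qc. None passed, and each turned its sign when 1 library was left out.

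The C1q protein contains its 3 chains in equal numbers, so their relative levels were also compared within each library. Gene rows were used, and that of C1qc lay below its transcript. In knockout male replicate 1 these were 4.06 and 6.22 FPKM, so the share of C1qc may be understated. C1qa made up 59.2% and 51.6% of the summed FPKM of the chains in knockout males and 55.1% and 23.0% in wild type males. It made up 20.4% and 75.6% in sponge females and 49.7% and 51.6% in wild type females. The lowest and the highest share were thus both found in sponge females. The sum of the chains was 66.2 and 57.8 FPKM in knockout males and 102.2 and 41.0 FPKM in wild type males. The genes lie side by side at chr4:136880129-136886187 for C1qb, chr4:136889804-136893065 for C1qc and chr4:136895917-136898803 for C1qa.

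**Figure D3:**
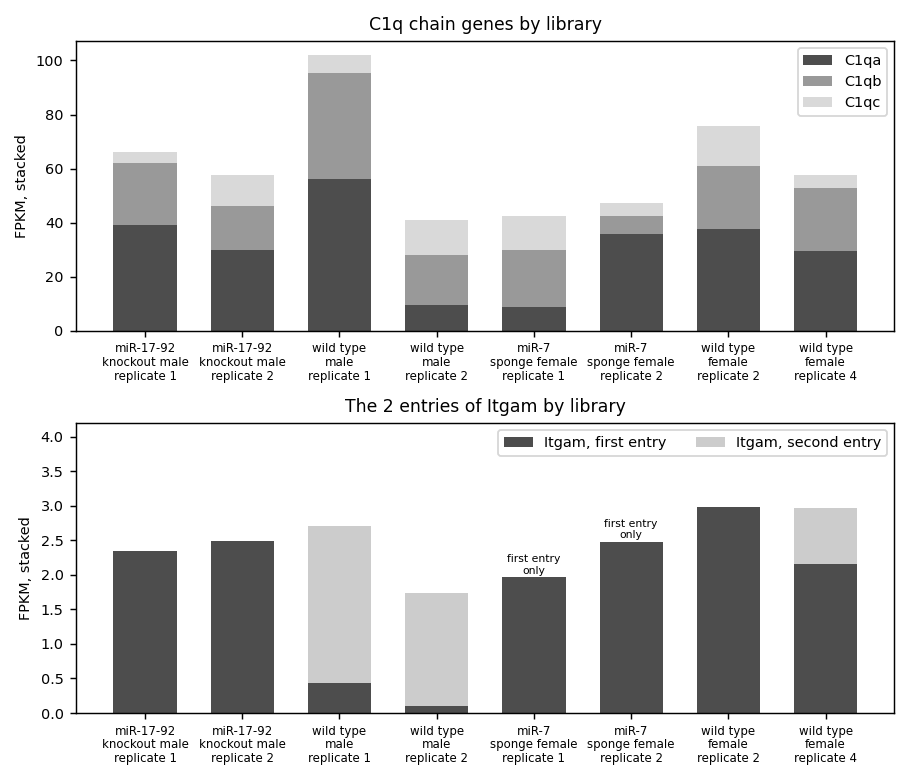
Stacked FPKM of the C1q chain genes (top) and of the 2 rows of Itgam (bottom) in each library. The share of C1qa runs from 20.4% to 75.6%, and the second row of Itgam is seen in both wild type male libraries and in wild type female replicate 4; for sponge females only the first row was used.

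Among the other receptors and adaptors, Cd14, a co-receptor for bacterial lipopolysaccharide, had 0.657 and 0.288 FPKM in knockout males and 3.35 and 1.05 FPKM in wild type males. Mertk, a receptor tyrosine kinase for the uptake of dying cells, had 2.76 and 3.65 FPKM in knockout males and 4.97 and 4.55 FPKM in wild type males. Both genes were lower in each knockout library, with log2 fold changes of -1.03 ± 0.42 and -0.46 ± 0.21 and adjusted p-values of 0.792. Inpp5d, which encodes the phosphatase SHIP1 that dampens such receptors, had 0.794 and 0.965 FPKM in knockout males and 1.85 and 1.32 FPKM in wild type males. Its log2 fold change was -0.46 ± 0.21 (adjusted p = 0.792). Tyrobp had 14.1 and 9.33 FPKM in knockout males and 11.6 and 7.69 FPKM in wild type males. The Tyrobp groups overlapped, with a log2 fold change of 0.26 ± 0.31. The remaining genes of this kind had log2 fold changes of -0.44 for C3ar1, a receptor for a complement fragment, -0.39 for Trem2, a lipid-sensing receptor, 0.15 for Fcgr3 and -0.02 for Fcer1g.

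The surface sensors and homeostatic markers had 8 positive and 4 negative fold changes, with a median of 0.16. Csf1r had 13.9 and 8.69 FPKM in knockout males and 19.3 and 13.2 FPKM in wild type males. Its groups overlapped, and the log2 fold change was -0.50 ± 0.32 (adjusted p = 0.792). Selplg, the ligand of P-selectin, had 0.152 and 2.41 FPKM in knockout males and 2.83 and 2.86 FPKM in wild type males. The near-zero value of knockout replicate 1 accounts for most of its log2 fold change of -0.96 ± 0.55, which was -0.17 without that library. Siglech, a sialic acid-binding lectin, had 1.64 and 1.59 FPKM in knockout males and 1.33 and 1.22 FPKM in wild type males, with a log2 fold change of 0.20 ± 0.18. Cd53, a tetraspanin of white blood cells, had 2.77 and 2.44 FPKM in knockout males and 2.38 and 2.06 FPKM in wild type males. None of these members passed. Cx3cr1, the receptor for fractalkine, had 7.43 and 7.03 FPKM in knockout males and 9.30 and 0.0366 FPKM in wild type males, so that its log2 fold change of 1.33 had a standard error of 1.11. For the others the log2 fold changes were 0.59 for P2ry13, 0.39 for Gpr34, -0.50 for P2ry12, 0.18 for Olfml3, 0.16 for Ly86, 0.03 for Tmem119 and -0.24 for Fcrls.

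The lysosomal and cytoplasmic genes had 1 positive and 4 negative fold changes. Ctss had 50.7 and 37.5 FPKM in knockout males and 55.3 and 41.4 FPKM in wild type males, with a log2 fold change of -0.13 ± 0.26. Its groups overlapped. Cd68, a lysosomal glycoprotein of phagocytes, had 2.23 and 2.35 FPKM in knockout males and 4.23 and 2.38 FPKM in wild type males, with a log2 fold change of -0.35 ± 0.28. The lower wild type value of Cd68 lay just above the knockout pair. Lyz2, which encodes lysozyme, had a log2 fold change of -0.78, Laptm5 of -0.29, and Aif1, the source of the IBA1 stain, had 1.82 and 1.90 FPKM in knockout males and 1.86 and 1.85 FPKM in wild type males.

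Each of the 3 transcription factors had a negative log2 fold change. Irf8 had 0.666 and 0.296 FPKM in knockout males and 1.38 and 0.780 FPKM in wild type males, with a log2 fold change of -0.49 ± 0.25. Spi1 had 0.312 and 0.372 FPKM in knockout males and 1.04 and 0.437 FPKM in wild type males, with a log2 fold change of -0.35 ± 0.24. Sall1 had 1.41 and 2.18 FPKM in knockout males and 3.42 and 1.81 FPKM in wild type males, which overlap. All 3 had their highest value in wild type male replicate 1 and none passed, with adjusted p-values of 0.792 for Irf8 and Spi1.

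**Figure D4:**
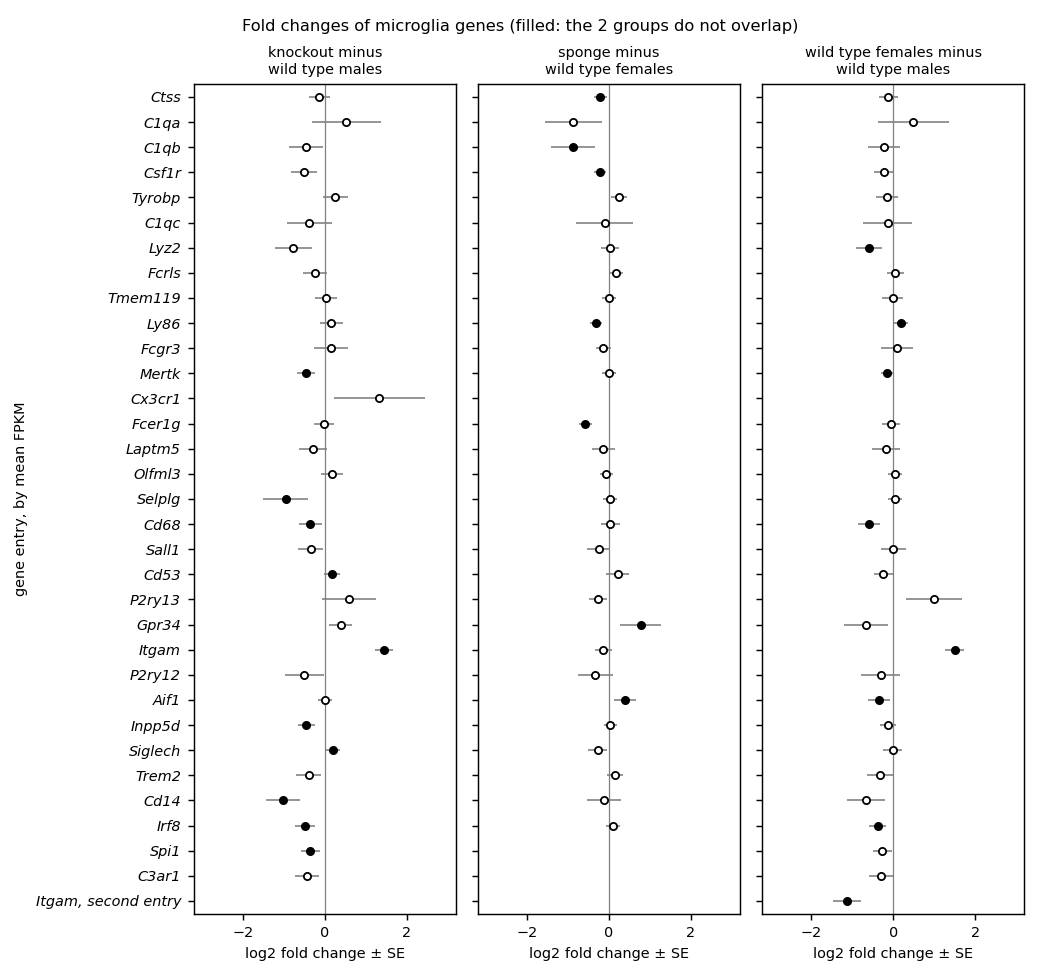
Log2 fold change with its standard error for each microglia gene entry in the 3 comparisons; filled points mark entries whose groups do not overlap, and entries with a group listed at 0 in both libraries are left blank. In the knockout comparison 20 of 33 entries have a negative value, 1 of them not drawn.

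Genes outside the 33 that belong to the same biology were read for the same comparison, and 0 were called. Of 39 other homeostatic microglia genes tested, 10 had a positive and 29 a negative log2 fold change, with a median of -0.20. Cebpa, a myeloid transcription factor, had 1.69 and 1.88 FPKM in knockout males and 0 in either wild type male library (adjusted p = 0.174). Among 14 genes listed as ligands of microglial receptors or related to them, Sirpa and Lgmn included, 3 had a positive and 11 a negative log2 fold change. Cd200, a neuronal membrane protein that restrains microglia, had 22.6 and 24.3 FPKM in knockout males and 38.3 and 39.5 FPKM in wild type males. Its pairs lay well apart, with a log2 fold change of -0.71 ± 0.18 and an adjusted p of 0.709. Cx3cl1, which encodes fractalkine, had 31.2 and 5.63 FPKM in knockout males and 50.8 and 39.8 FPKM in wild type males.

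Genes linked to activated or disease-associated microglia had 9 positive and 15 negative log2 fold changes among 24 tested, with a median of -0.13. Ctsz, a lysosomal protease, had 13.6 and 14.2 FPKM in knockout males and 20.5 and 24.9 FPKM in wild type males. Spp1, which encodes the secreted protein osteopontin, had 5.61 and 3.22 FPKM in knockout males and 1.98 and 0.800 FPKM in wild type males. Their log2 fold changes were -0.67 ± 0.19 and 1.19 ± 0.37, and both adjusted p-values were 0.792. Border-associated macrophage genes had 3 positive and 3 negative values, and without wild type male replicate 1 all 6 were positive. All 17 tested genes of the meninges and fibroblasts had a positive log2 fold change, with a median of 0.94.

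The second comparison concerned miR-7 sequestered in Pomc-expressing cells of females. Spi1 and C3ar1 were below the filter, and of the 30 entries tested 0 were called by limma, with 14 of 13157 genes called in all, or 0.106%. At an unadjusted p under 0.05 there was 1 entry lower and 0 higher, beside 2.11% of all genes lower and 1.65% higher. The log2 fold change was negative for 17 of 30 entries, or 56.7%, against 56.0% of all genes. The median was -0.08 over the entries and -0.03 over all genes, and with any 1 library left out it lay between -0.07 and -0.01 over the entries. Both sponge libraries lay above both wild type libraries for 2 entries, beside 12.1% of all genes, and below for 5 entries, beside 18.8%.

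Fcer1g, the adaptor chain that Fc receptors share, was the entry with the smallest unadjusted p. It had 2.21 and 2.51 FPKM in sponge females and 4.11 and 3.94 FPKM in wild type females. The pairs did not overlap, and the log2 fold change was -0.58 ± 0.15 with an adjusted p of 0.963. The male libraries had 4.72 and 3.67 FPKM in knockout males and 5.12 and 3.51 FPKM in wild type males, so both sponge values were the lowest of the 8. Tyrobp, the other signalling adaptor, had 10.9 and 9.63 FPKM in sponge females and 9.64 and 7.40 FPKM in wild type females, with a log2 fold change of 0.25 ± 0.19. Fcgr3, an Fc receptor that signals through Fcer1g, had 4.69 and 3.70 FPKM in sponge females and 5.15 and 4.27 FPKM in wild type females. The groups of Tyrobp and of Fcgr3 overlapped.

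The C1q chains again differed more within the sponge group than between the groups. C1qa had 8.67 and 35.8 FPKM in sponge females and 37.6 and 29.7 FPKM in wild type females. C1qb had 21.1 and 6.82 FPKM in sponge females and 23.2 and 23.1 FPKM in wild type females. C1qc had 12.6 and 4.72 FPKM in sponge females and 14.8 and 4.69 FPKM in wild type females. Sponge replicate 1 was the low library for C1qa and the high one for C1qb and C1qc. The log2 fold changes were -0.87 ± 0.70 for C1qa, -0.88 ± 0.54 for C1qb and -0.10 ± 0.69 for C1qc, each with an adjusted p of 0.9999.

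Ly86, which encodes a partner of a Toll-like receptor homologue, had 4.32 and 4.00 FPKM in sponge females and 5.78 and 5.10 FPKM in wild type females. Csf1r had 11.7 and 11.3 FPKM in sponge females and 12.97 and 14.2 FPKM in wild type females. Ctss had 39.3 and 36.5 FPKM in sponge females and 47.1 and 41.1 FPKM in wild type females. All 3 lay lower in both sponge libraries, by small amounts, with log2 fold changes of -0.32 ± 0.16 for Ly86, -0.22 ± 0.14 for Csf1r and -0.21 ± 0.16 for Ctss. The 2 entries that lay higher in both were Gpr34, a lysophospholipid receptor, and Aif1. Gpr34 had 1.97 and 2.33 FPKM in sponge females and 0.145 and 1.97 FPKM in wild type females, with a log2 fold change of 0.77 ± 0.51. Aif1 had 1.95 and 1.92 FPKM in sponge females and 1.78 and 0.798 FPKM in wild type females, with a log2 fold change of 0.39 ± 0.26. In both genes 1 wild type library was far below the other. Cx3cr1 had 7.17 FPKM in sponge replicate 1 and was listed at 0 in the other female libraries. The remaining entries had log2 fold changes between -0.33 and 0.21.

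Among the other lists, homeostatic microglia genes had 20 positive and 18 negative log2 fold changes of 38 tested. Vsir, an inhibitory checkpoint protein of myeloid cells, had 3.51 and 1.98 FPKM in sponge females and 6.32 and 6.12 FPKM in wild type females, with a log2 fold change of -0.98 ± 0.26 (adjusted p = 0.954). The genes listed as ligands of microglial receptors or related to them had 2 positive and 12 negative values of 14. Lists of other cell types were also mostly negative here, with 17 of 20 astrocyte genes, 15 of 20 pan-neuronal genes, 15 of 20 endothelial and mural genes and 16 of 19 oligodendrocyte genes below 0. Their part in the ligand values was not tested. Csf1, a ligand of Csf1r, had 2.38 and 2.16 FPKM in sponge females and 3.47 and 4.60 FPKM in wild type females, with a log2 fold change of -0.61 ± 0.19 (adjusted p = 0.9999). Genes of activated microglia had 9 positive and 14 negative values of 23, and Ctsz had 21.7 and 19.1 FPKM in sponge females and 10.9 and 12.1 FPKM in wild type females. Its log2 fold change was 0.78 ± 0.16 (adjusted p = 0.642), opposite in sign to that in the knockout males. Border-associated macrophage genes had 1 positive and 4 negative values. No gene of these lists was called.

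The third comparison set wild type females against wild type males, and shares its libraries with the other 2 comparisons. All 33 entries were tested and 0 were called by limma, with 9 of 13114 genes called in all, or 0.0686%. At an unadjusted p under 0.05 there were 1 entry higher and 1 lower, again the 2 rows of Itgam, beside 2.47% and 2.14% of all genes. The log2 fold change was negative for 24 of 33 entries, or 72.7%, against 40.6% of all genes, with medians of -0.15 and 0.06. When each library was centred on its median gene, 28 of 33 entries were negative. Without wild type male replicate 1, 15 of 33 were negative, beside 44.25% of all genes. The median was then 0.02 over the entries and 0.04 over all genes. Without wild type male replicate 2 the medians were -0.36 and 0.08. The distance of the list from all genes thus rested largely on wild type male replicate 1.

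Itgam in this comparison had 2.98 and 2.16 FPKM in wild type females and 0.433 and 0.0974 FPKM in wild type males for the first row. The second row had 0 and 0.811 FPKM in wild type females and 2.28 and 1.64 FPKM in wild type males. The rows again ran in opposite directions, with log2 fold changes of 1.5 ± 0.24 (adjusted p = 0.327) and -1.13 ± 0.35 (adjusted p = 0.920). Their sum was 2.98 and 2.97 FPKM in wild type females and 2.71 and 1.74 FPKM in wild type males. The sums did not overlap, and their difference was not tested in the fit.

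Both female libraries lay above both male libraries for 2 entries, beside 24.1% of all genes, and below for 7 entries, beside 10.9%. Cd68 had 1.75 and 1.80 FPKM in wild type females and 4.23 and 2.38 FPKM in wild type males, with a log2 fold change of -0.60 ± 0.27. Lyz2 had 5.65 and 5.72 FPKM in wild type females and 12.2 and 6.64 FPKM in wild type males, with a log2 fold change of -0.59 ± 0.31. Irf8 had 0.587 and 0.572 FPKM in wild type females and 1.38 and 0.780 FPKM in wild type males, with a log2 fold change of -0.38 ± 0.22. In these 3 genes wild type male replicate 1 was the higher male library, and each adjusted p was 0.920. Aif1 and Mertk lay lower and Ly86 higher in both female libraries, with log2 fold changes of -0.35 ± 0.27, -0.15 ± 0.16 and 0.19 ± 0.17. Cx3cr1 was listed at 0 in both wild type females and at 9.30 and 0.0366 FPKM in wild type males.

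Among the most abundant entries, the log2 fold changes between wild type females and males were -0.12 ± 0.23 for Ctss, 0.49 ± 0.87 for C1qa, -0.22 ± 0.39 for C1qb, -0.22 ± 0.24 for Csf1r, -0.15 ± 0.27 for Tyrobp and -0.13 ± 0.60 for C1qc. None passed, and all overlapped between the sexes. Genes of activated microglia had 4 positive and 20 negative values of 24. Ctsz had 10.9 and 12.1 FPKM in wild type females and 20.5 and 24.9 FPKM in wild type males, with a log2 fold change of -0.92 ± 0.19 (adjusted p = 0.542). Apoe, a lipid carrier that microglia and astrocytes secrete, had 238 and 171 FPKM in wild type females and 862 and 298 FPKM in wild type males. H2-Aa, an antigen-presenting molecule of border macrophages, had 0.256 and 0.142 FPKM in wild type females and 2.79 and 0.884 FPKM in wild type males. Apoe and H2-Aa were both highest in wild type male replicate 1.

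Whether the effects of the 2 manipulations differed was tested in a fit of all 8 libraries. Of the 32 entries 0 were called by limma, with 2 of 13025 genes called in all, or 0.0154%. Itgam was the only entry at an unadjusted p under 0.05, beside 4.98% of all genes. Its knockout effect minus its sponge effect was 1.59 ± 0.29 on the log2 scale (adjusted p = 0.570), for the first row alone.

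Transcript rows gave another reading of the same libraries. Of 41 member transcripts tested in the knockout comparison, 0 were called by limma and 1 had an unadjusted p under 0.05, beside 2 of 22134 called in all, or 0.00904%, and 5.83% at the unadjusted level. In the sponge comparison 0 of 37 were called, with 0 of 22370 in all, or 0.0%, and 0 of 37 had an unadjusted p under 0.05, beside 4.52%. In the comparison of the sexes 0 of 40 were called, with 0 of 22079 in all, and 0 of 40 had an unadjusted p under 0.05, beside 5.77%. The member at the unadjusted level was Itgam-001, the transcript of the second row. P2ry12, whose protein draws microglial processes to released nucleotides, was assigned to different transcripts from library to library. P2ry12-001 had 2.47 and 0 FPKM in knockout males and 0.0242 and 0 FPKM in wild type males, while P2ry12-004 had 0 and 0 FPKM in knockout males and 0.0253 and 3.25 FPKM in wild type males. The gene had 2.56 and 0.676 FPKM in knockout males and 1.67 and 3.47 FPKM in wild type males, which overlap. For Ctss the main transcript was Ctss-201, at 49.3 and 35.6 FPKM in knockout males and 53.2 and 40.3 FPKM in wild type males. The other, Ctss-001, had 1.52 and 1.95 FPKM in knockout males and 2.21 and 1.24 FPKM in wild type males.

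Several members were near 0 in at least 1 library, and Cx3cr1 was under 0.1 FPKM in 4 of the 8. The lowest library was at most 10% of the gene's median over 8 libraries for 4 of 10 entries with up to 3 exons, or 40.0%, against 35.4% of 1422 genes of that kind. It was for 2 of 22 entries with at least 4 exons, or 9.09%, against 0.915% of 11582 genes. The members with few exons were Cx3cr1, P2ry13, Selplg and C3ar1, and the others were Gpr34 and Itgam. The Itgam entry is the first row, with 0.433 and 0.0974 FPKM in wild type males, where the overlapping second row had 2.28 and 1.64 FPKM. P2ry13, a purine receptor, had 2.19 and 1.86 FPKM in knockout males and 0.0431 and 2.87 FPKM in wild type males. P2ry13 lies at chr3:59207892-59210882 beside P2ry12 at chr3:59216272-59262871, and P2ry12 had 1.67 FPKM in the library where P2ry13 was near 0. Selplg, at 0.152 FPKM in knockout replicate 1, lies at chr5:113818536-113832644 beside Tmem119 at chr5:113793729-113800516, which had 5.33 FPKM there. The low values thus did not extend to the neighbouring member gene in these 2 libraries, and their cause was not tested.

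**Figure D5:**
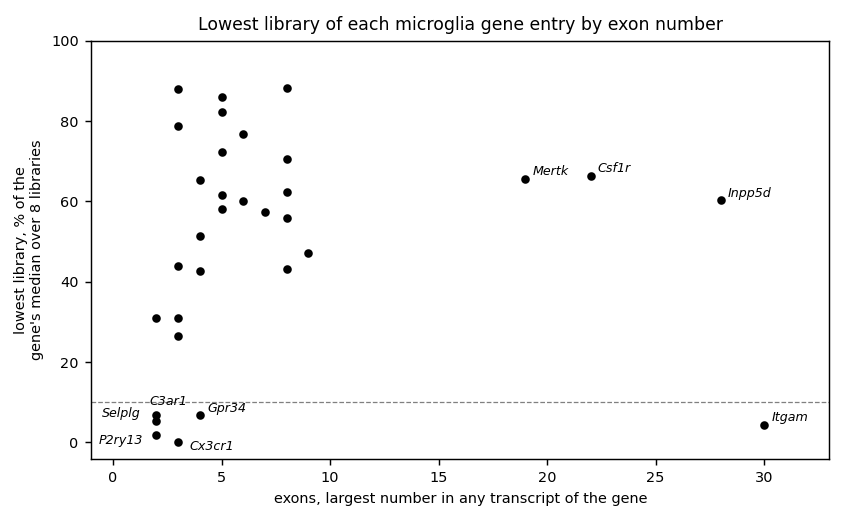
Lowest of 8 libraries as a percentage of the gene's median, against the largest number of exons in any annotated transcript of the gene, with one point per microglia gene entry; the dashed line marks 10%. The 6 labelled entries at or below the line are C3ar1, Selplg, P2ry13 and Cx3cr1 with up to 3 exons, and Gpr34 and Itgam with more.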

How the data were processed

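RNA from 8 pools of arcuate nucleus was selected with oligo(dT) and made into stranded, paired-end libraries, per the labels' protocols. The submitters' processing notes name HISAT2 2.0.4, StringTie 1.2.3, cutadapt and FastQC, and the builds mm10 and GRCm38; settings, including strand, are not given in the sources used here. The authors deposited FPKM per gene and transcript, which per the labels' series design came from Ballgown.

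From these FPKM, limma 3.58.1 in R 4.3.3 was fitted to log2(FPKM + 1) with a mean-variance trend, after a filter at a mean of 0.5 FPKM over the 4 libraries of a comparison. Tests were two-sided, and p-values were adjusted with Benjamini-Hochberg over all genes tested. The fit was tested on simulated data. The labels do not say that the pools of a group came from separate litters, so p-values reflect only how these libraries vary. No read counts were used, so no counting intervals are given.

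The members, the other gene lists and the tests were chosen with earlier results of these data known. Members named in full were those whose groups did not overlap, up to 10 per comparison by unadjusted p, and the 6 of highest mean FPKM. From each other list up to 3 genes of smallest unadjusted p could be named. Other members and details were named after their values were seen. Exon numbers are from GENCODE M21, and promoters from RefSeq on GRCm38.p6. Same-numbered male libraries deviated from their group means with a correlation of 0.001 over 13155 genes, so the numbers were not taken as pairs. Alternatives were another pseudocount, other filters, median centring, an 8-library fit, no trend, a replicate block and leaving out each library.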

Additional observations from a re-analysis of the deposited data

How the results depend on the processing

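The number of members called stayed at 0 in every comparison and alternative run. The number of genes called in the knockout comparison, 8, was 2 with a pseudocount of 0.1 and 0 with a replicate block (582 at an unadjusted p under 0.05), where the male libraries shared only their numbers. No paired analysis was possible in the female and the sex comparison because the groups share 1 replicate number. In a fit of all 8 libraries the genes called were 2 instead of 14 in the sponge comparison and 3 instead of 9 between wild type females and males. The 2 genes called for the difference of the manipulations were 4 with a pseudocount of 0.1. Members with a positive log2 fold change between wild type females and males were 9, and 5 after median centring. With 1 library left out, genes called were 0 in each of the 3 comparisons (633 to 1146 at an unadjusted p under 0.05) and between 0 and 7 for the difference. The median of the members then ran from -0.45 to -0.0181 in the knockout comparison, from -0.0675 to -0.00896 in the sponge comparison and from -0.36 to 0.0197 between the sexes, where positive members ran from 8 to 18.

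Of the log2 fold changes of single named members, all 256 under other settings kept their direction and stayed uncalled, and with 1 library left out 145 did and 19 changed sign. In the knockout comparison these ran from -0.35 to 0.0819 for Ctss, -0.70 to 1.75 for C1qa, -0.98 to 0.0489 for C1qb, -1.04 to 0.29 for C1qc and -0.01745 to 0.53 for Tyrobp. In the sponge comparison they ran from -1.83 to 0.10 for C1qa and from -0.84 to 0.64 for C1qc. Between wild type females and males they ran from -0.32 to 0.0867 for Ctss, -0.73 to 1.72 for C1qa, -0.73 to 0.30 for C1qb, -0.48 to 0.0347 for Csf1r, -0.41 to 0.12 for Tyrobp and -0.87 to 0.60 for C1qc. With 2 libraries per group, 1 library can set the sign of these values, and the depth behind them is unknown. A left-out library leaves its group with 1, which is assumed to vary like the other group.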
